A study of Mus musculus with 4 samples.

Results

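The colon cells described here were goblet cells that carried both much Zg16 and much Mxd1 messenger RNA, 222 of the 6776 distal colon (DC) cells kept and of the 10522 cells kept in the whole series. They were chosen by measured values. A DC barcode was kept with at least 500 genes and at most 20% of its unique molecular identifiers (UMIs, 1 per captured transcript) from mitochondrial genes. It was a member with at least 3 Mxd1 UMIs per 10000 and at least 2 in number, at least 200 Zg16 UMIs per 10000, and fewer than 30 per 10000 for the absorptive genes Car4, Slc26a3 and Aqp8 together. These are called Mxd1-high cells below. No position in the tissue was measured, so whether they sat between crypts was not observed.

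Goblet cells make and secrete the intestinal mucus, a Muc2 gel with associated proteins such as Fcgbp, Clca1 and the bacteria-binding lectin-like Zg16. In the colon, goblet cells are born near the crypt base and mature as they move up, and those on the surface between crypts are called intercrypt goblet cells. Mxd1 encodes a partner of Max that opposes Myc, a driver of growth and of ribosome production, and is known as a gene of cells that have left the cell cycle.

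Droplet libraries of 3′ transcript ends were made from living epithelial cells that had been sorted on mCherry. There were 2 libraries of the DC and 2 of small intestine, taken from its 8th section (Si8), and all came from RedMUC298trTg mice aged 6 to 8 weeks, which carry an mCherry reporter used to find goblet cells. The promoter of the reporter, the mice behind each library, and whether a library held mCherry-positive cells alone are not given in the sources used here. No source says that the replicates came from separate mice, so p-values below measure the spread between libraries, which may be technical.

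The 4 libraries held 1937 and 5098 barcodes for DC 1 and DC 2, and 1536 and 2256 for Si8 1 and Si8 2, with 26075303 to 66880457 UMIs in each. Pairs of libraries shared 1 to 16 cell barcodes. A barcode in a pair was an Mxd1-high or same-rule Si8 cell in 4 cases, 3 of them among the 4 barcodes shared by DC 1 and Si8 1. Of these, 1 barcode met the rule in both DC 1 and Si8 1.

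The Mxd1-high cells were 108 of 1859 kept cells in DC 1 (5.81%, exact 95% interval 4.79 to 6.97) and 114 of 4917 in DC 2 (2.32%, 1.92 to 2.78). The intervals cover counting error only and do not overlap, so the share differed between the DC replicates. Among Zg16-high cells that met the absorptive condition, the Mxd1-high cells were 30.5% in DC 1 and 15.4% in DC 2. The Mxd1 condition alone was met by 151 and 272 kept cells, and 118 and 122 of these also met the Zg16 condition. The absorptive condition then removed 10 and 8 cells. Exactly 2 Mxd1 UMIs had admitted 16 cells in DC 1 and 25 in DC 2, or 14.8% and 21.9% of the Mxd1-high cells.

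Comparison cells came from the same DC library. The other Zg16-high cells, 246 in DC 1 and 625 in DC 2, met every condition but that on Mxd1. All other kept cells numbered 1751 and 4803, and they include the other Zg16-high cells. Levels are UMIs summed over the cells of a set per 1000000 UMIs of that set (CPM). They are compared between sets and not between genes. Because measured values of the same cells chose the members, differences between these sets are given as values and counts without a test.

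Mxd1-high cells were shallow. Their median was 4311 UMIs in DC 1 and 5592 in DC 2, against 11864 and 10371 in other Zg16-high cells and 13896 and 12472 in all other kept cells. They also held fewer genes, with medians of 1250 and 1582 against 2895 and 2733 in other Zg16-high cells. Mitochondrial UMIs were a median of 10.1% and 9.32% per Mxd1-high cell, against 6.10% and 5.90% in other Zg16-high cells. The range of UMIs was 3120 to 15273 in DC 1 and 3289 to 18459 in DC 2, and overlapped that of both other sets. Depth and mitochondrial share therefore moved with every difference below, and their part in it was not tested. For some results, levels or counts within limits on depth or mitochondrial share are given.

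**Figure D1:**
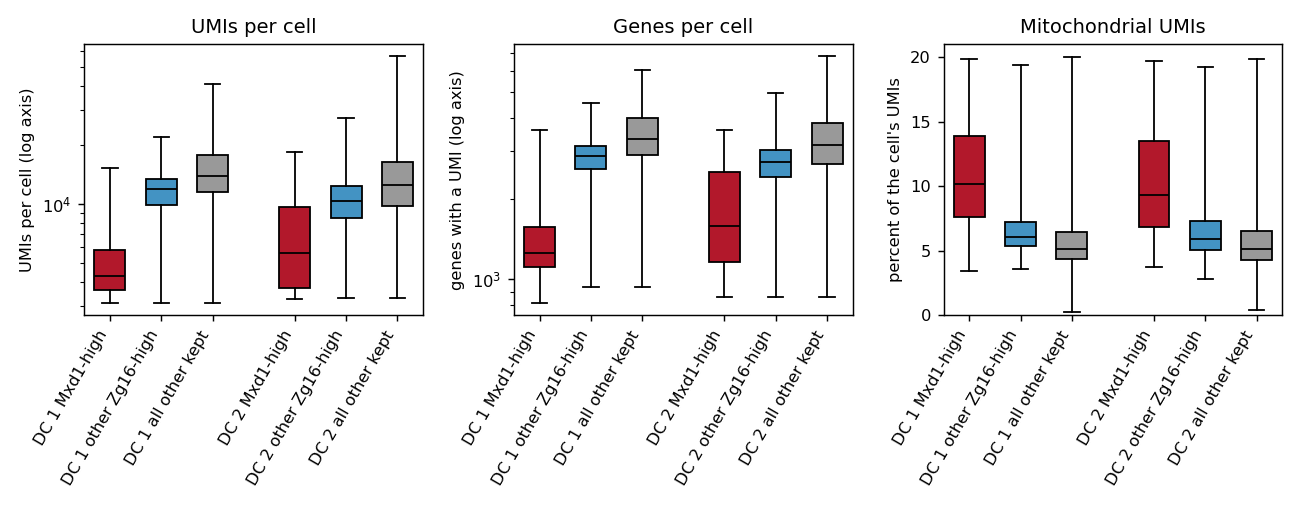
UMIs per cell and genes per cell on log axes, and the percent of mitochondrial UMIs, for Mxd1-high, other Zg16-high and all other kept cells of each DC library; boxes span the quartiles, the line is the median and whiskers reach the lowest and highest cell. Mxd1-high cells have the lowest median depth, 4311 and 5592 UMIs, and the highest median mitochondrial share, 10.1% and 9.32%.

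The 5 genes that mark this kind of cell were all highest in the Mxd1-high set, 2 of them by the rule. Mxd1 (chromosome 6, 86647042 to 86669161, minus strand, GRCm38) stood at 1124 CPM in DC 1 and 664 CPM in DC 2, against 53.6 and 59.5 CPM in other Zg16-high cells. Zg16 stood at 88218 and 93098 CPM, against 53164 and 56154 CPM. These values follow from the thresholds and are a description.

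Krt20, a keratin filament of mature gut epithelium (ENSMUSG00000035775, chromosome 11, 99428403 to 99438150, minus strand), stood at 575 CPM in DC 1 and 478 CPM in DC 2. It stood at 57.2 and 59.7 CPM in other Zg16-high cells and at 19.2 and 35.3 CPM in all other kept cells. Both Mxd1-high values lay above all 4 comparison values, by 8.71-fold and 7.01-fold over other Zg16-high cells when 10 CPM were added to both sides, as for every fold below.

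Clca1, a secreted metalloprotease that acts on the mucus gel (chromosome 3, 145003817 to 145032776, minus strand), stood at 25646 and 14503 CPM, against 5568 and 3828 CPM in other Zg16-high cells and 1137 and 669 CPM in all other kept cells. Fer1l6, of the ferlin family of membrane proteins (chromosome 15, 58510048 to 58665092, plus strand), stood at 451 and 289 CPM, against 119 and 99.8 CPM in other Zg16-high cells and 40.2 and 27.9 CPM in all others. For both genes DC 1 was the higher library in the Mxd1-high set, and no comparison value reached either Mxd1-high value.

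General goblet markers did not all move that way. Muc2, the gel-forming mucin, stood at 16239 and 12898 CPM, against 7334 and 7787 CPM in other Zg16-high cells. Agr2, an endoplasmic reticulum (ER) protein needed to make Muc2, stood at 3728 and 7906 CPM, against 12933 and 14857 CPM. The 5 mucus genes Zg16, Tff3, Fcgbp, Clca1 and Muc2 together took 22.5% and 20.2% of the Mxd1-high cells' UMIs, against 10.9% and 10.4% in other Zg16-high cells.

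Members were also chosen on 1 random part of each cell's UMIs, with at least 1 Mxd1 UMI asked for, and levels read from the equal remaining part. The levels of Krt20 and Mxd1 kept their direction. Krt20 then stood at 476 and 434 CPM in the cells so chosen, against 65.7 and 58.8 CPM in other Zg16-high cells, and Mxd1 at 891 and 474 CPM, against 77.2 and 77.3 CPM. The Mxd1 level was thus also higher in UMIs that had not selected the cells. Krt20 is not part of the rule, so its UMIs selected no cells in either case.

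Shares of cells with a UMI were read after thinning each cell to 2000 UMIs. Krt20 was seen in 64.8% of Mxd1-high cells in DC 1 and 62.3% in DC 2, against 10.6% and 10.4% of other Zg16-high cells; unthinned, the shares were 86.1% and 85.1%, against 27.2% and 26.7%. Cycling cells low in Zg16, which should lack Krt20, showed it in 0 of 386 thinned cells in DC 1 (an upper exact bound of 0.951%) and in 0.907% of 1102 in DC 2; their median depths were 20641 and 18351 UMIs. Of the genes Krt20, Fer1l6, Clca1, Saa1 and Slfn4, all 5 were seen in 36 of 108 and 29 of 114 Mxd1-high cells, against 6 of 246 and 6 of 625 other Zg16-high cells, after the same thinning. The Mxd1-high cells were not uniform: 11 of the 114 in DC 2 showed 1 of these genes, and 2 of the 108 in DC 1 did.

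Markers of other cell types were low, apart from absorptive markers outside the rule. The 6 immune and 4 tuft markers had 0 UMIs in the Mxd1-high cells of both libraries, and the 5 stromal markers had 1 UMI in each. The 5 enteroendocrine markers had 0 UMIs in DC 1 and 12 in DC 2, the 4 stem markers 2 and 3, and the 4 Paneth markers 1 and 5. The 5 cycling markers summed to 12.2 and 45.4 CPM, against 17.8 and 49.3 CPM in other Zg16-high cells and 436 and 393 CPM in all other kept cells. The 5 absorptive markers outside the rule summed to 451 and 506 CPM, against 289 and 304 CPM in other Zg16-high cells and 415 and 456 CPM in all other kept cells, with Slc9a3 at 0 in Mxd1-high cells. Car1, whose levels are given below, made up much of the Mxd1-high sums. Without Car1 the sum lay below that of other Zg16-high cells in DC 1 and slightly above it in DC 2. Where absorptive RNA in these cells came from was not tested. In the 63 and 65 Mxd1-high cells with no Car4, Slc26a3 or Aqp8 UMI, Krt20 stood at 551 and 450 CPM and Saa1 at 4293 and 2558 CPM.

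Set against all other kept DC cells, a gene counted as higher or lower when it differed by at least 2-fold in the same direction in both libraries, with at least 20 CPM on 1 side. By that rule 207 of 5395 genes were higher (3.84%) and 632 were lower (11.7%). Secreted, surface and defence genes were among the 15 highest by fold, and genes of dividing cells among the 15 lowest. Slfn4, of the schlafen family (chromosome 11, 83175186 to 83190216, plus strand), stood at 1752 and 1023 CPM, against 35.9 and 28.1 CPM, which is 38.4-fold and 27.1-fold higher. Spink1, a trypsin inhibitor, stood at 23611 and 15907 CPM, against 1026 and 748 CPM.

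Fcgbp, a large protein of the mucus gel, stood at 20456 and 16774 CPM, against 1804 and 1379 CPM in all other kept cells. At the other end was Hist1h2ap, a histone gene of DNA replication, at 19.2 and 19.5 CPM against 494 and 244 CPM. Top2a, the topoisomerase of dividing cells, stood at 0 and 13.0 CPM against 116 and 111 CPM. Of 20 cycling genes measured, 18 were lower and 0 higher. Cycling cells low in Zg16 had a median of 20641 and 18351 UMIs, so depth moved with this contrast.

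The closer comparison is with the other Zg16-high cells of the same library. There 105 of 4844 genes were higher (2.17%) and 101 were lower (2.09%). The median gene differed by −0.27 in DC 1 and −0.18 in DC 2 on the log2 scale. These shares and medians are the background for the lists below. In a short list a count of 0 lies near these shares. When the 10 most abundant genes were left out of the scaling, these medians became 0.07 and 0.05.

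The higher group included genes of the surface, of defence and of the absorptive lineage. Saa1, an acute-phase protein of the epithelium (chromosome 7, 46740497 to 46742980, minus strand), stood at 4703 and 2259 CPM, against 218 and 187 CPM in other Zg16-high cells. That is 20.7-fold and 11.5-fold higher, though near-identical Saa genes may share reads. Slfn4 stood at 1752 and 1023 CPM against 126 and 87.8 CPM. In both genes DC 1 was the higher library, and the library sums of the sets did not overlap. Single cells did: Saa1 ranged from 0 to 142 UMIs per 10000 in Mxd1-high cells of DC 2, against 0 to 149 in other Zg16-high cells, with medians of 23.6 and 0.

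Atp12a, a proton and potassium pump (chromosome 14, 56365068 to 56388550, plus strand), stood at 1030 and 405 CPM, against 205 and 86.8 CPM. Cyp2d34, a cytochrome P450, stood at 768 and 373 CPM, against 123 and 83.3 CPM, and its relative Cyp2d12 at 374 and 93.4 CPM, against 20.95 and 10.4 CPM. The cytochrome genes are close relatives whose reads can be split. The remaining genes of the 15 with the largest steady increase, beside Krt20 and Clca1, were 2010109I03Rik, 2310079G19Rik, 4930539E08Rik, Gm26532, Vill, Sprr1a, Rab3b and Sectm1b.

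Of these, Sprr1a, a small proline-rich protein of barrier epithelia, stood at 124 and 157 CPM against 10.7 and 28.1 CPM. Vill, a villin-like actin protein, stood at 112 and 71.3 CPM against 4.97 and 7.48 CPM. Rab3b, a small GTPase of regulated secretion, stood at 76.9 and 104 CPM against 8.52 and 13.0 CPM. Sprr1a and Rab3b were higher in DC 2, unlike most of the group.

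The lower group included Reg4, Mptx1 and Spink4 of the deep crypt list. Reg4, a lectin-like marker of deep crypt secretory cells, stood at 264 and 568 CPM, against 1645 and 1779 CPM. Mptx1, a pentraxin, stood at 6565 and 6129 CPM, against 31550 and 21159 CPM. Spink4, a secreted peptide of goblet cells, stood at 2873 and 4818 CPM, against 12257 and 11585 CPM.

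All 3 were lower in both libraries, by less in DC 2. Slc12a2, the chloride uptake transporter of secreting epithelium, stood at 78.7 and 75.2 CPM, against 413 and 264 CPM. Creb3l4, an ER-bound transcription factor, stood at 19.2 and 18.2 CPM, against 88.8 and 89.0 CPM. C1qbp, a mitochondrial matrix protein, stood at 1.75 and 14.3 CPM, against 52.6 and 57.7 CPM.

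**Figure D2:**
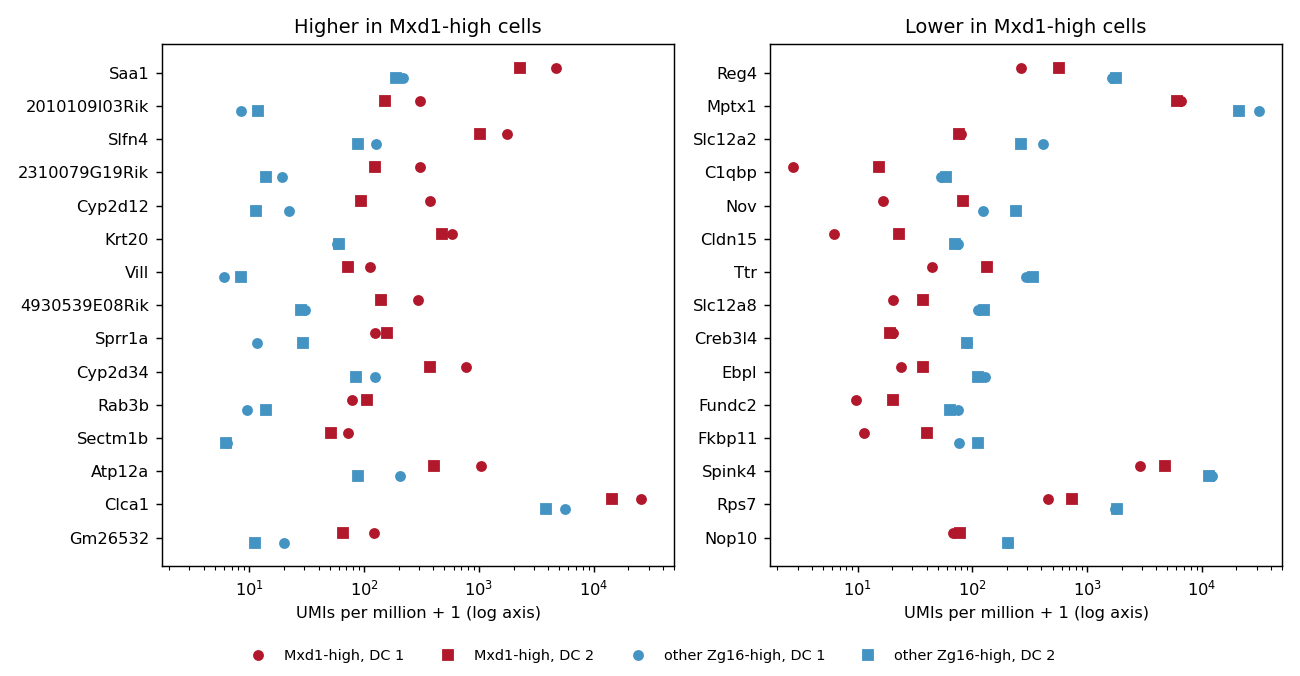
CPM plus 1, on a log axis, for the 15 genes most raised (left) and most reduced (right) in Mxd1-high against other Zg16-high cells; each point is the sum of a cell set in 1 library. In every gene shown both Mxd1-high points lie on the same side of both other points, as for Krt20 at 575 and 478 against 57.2 and 59.7 CPM.

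Cytosolic ribosomal proteins, whose production Myc drives, lay below other Zg16-high cells. Of 80 measured, 34 were lower by 2-fold in both libraries, 0 were higher, and all 80 lay below in both. Their median was −1.69 and −0.97 on the log2 scale. Rps7 stood at 451 and 738 CPM, against 1737 and 1823 CPM. Together the ribosomal proteins took 4.72% and 7.93% of UMIs in Mxd1-high cells, against 14.6% and 15.5% in other Zg16-high cells and 22.7% and 23.7% in all other kept cells.

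Scaling without the 10 most abundant genes left 79 of the 80 below but only 1 past 2-fold, with medians of −1.31 and −0.71. At no more than 10% mitochondrial UMIs all 80 lay below but 0 passed 2-fold, with medians of −1.43 and −0.71. Among cells of at least 5000 UMIs all 80 lay below and 1 passed, with medians of −1.27 and −0.75. With comparison cells limited to the 5th to 95th percentile of the members' UMIs, 30 passed. In cells of at least 5000 UMIs, the ribosomal shares were 6.32% and 9.33%, against 14.9% and 15.6%. Of 15 measured Myc targets of ribosome biogenesis, 1 was lower, Nop10, a core protein of small nucleolar particles, at 66.5 and 76.5 CPM against 202 and 205 CPM; the list's median was −1.40 and −0.81. In the Myc and Mxd network outside the rule, 0 of 6 genes passed in either direction. Myc itself stood at 8.74 and 16.9 CPM, against 31.3 and 21.2 CPM.

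Among other mucus components, 4 of 13 were higher, namely Tff3, Fcgbp, Tgm3 and Clca1, and 2 were lower, Mptx1 and Spink4. Tff3, a trefoil peptide, stood at 74511 and 64331 CPM, against 35724 and 29682 CPM. Tgm3, a transglutaminase that cross-links proteins, stood at 166 and 222 CPM, against 49.0 and 88.1 CPM. The list's median was 0.44 and 0.42 but turned to −0.79 and −0.29 over the 9 genes measured when the 10 most abundant genes, several of them mucus genes, were left out of the scaling.

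Of 31 goblet identity genes, 0 were higher and 4 lower, Slc12a8, Creb3l4, Pdia5 and Txndc5, with a median of −0.42 and −0.30. Limits of at least 5000 UMIs or at most 10% mitochondrial UMIs each left 2 lower. Of 8 secretory commitment factors 0 passed in either direction: Spdef stood at 170 and 114 CPM (against 152 and 128 CPM) and Atoh1 at 395 and 255 CPM (against 365 and 227 CPM).

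Of 39 genes of ER folding, 3 were lower and 0 higher (Fkbp11, Pdia5 and Txndc5), and of 47 genes of ER to Golgi transport 0 passed, though 41 lay below in both libraries. Of 26 granule exocytosis genes, 3 were higher and 0 lower, among them Fer1l6 and Rab27a. Rab27a, which docks granules at the membrane, stood at 208 and 134 CPM, against 63.2 and 57.5 CPM. Either limit, at least 5000 UMIs or at most 10% mitochondrial UMIs, left 1 ER folding gene lower and 1 exocytosis gene higher. The ER folding median of −0.38 and −0.30 became −0.02 and −0.06 when the 10 most abundant genes were left out of the scaling. Of 26 O-glycosylation genes, 2 were lower, B3gnt7 and St3gal6. Under either limit on depth or mitochondrial UMIs, 0 were lower.

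Surface and late differentiation genes were higher in 7 of 33 and lower in 0, beside 2.17% and 2.09% of all genes. Of the 33, 26 lay above in both libraries, and the median was 0.60 and 0.45. The 7 were Krt20, Fer1l6, Slfn4, Sprr1a, Sprr2a1, Sprr2a3 and Lgals3. Colonic absorptive genes outside the rule were higher in 6 of 20 and lower in 0: Saa1, Cyp2d34, Car1, Cdhr2, Espn and Scnn1b. Car1, a carbonic anhydrase, stood at 276 and 241 CPM, against 64.3 and 67.3 CPM, and Scnn1b, a sodium channel subunit, at 96.2 and 63.5 CPM, against 26.3 and 16.5 CPM. Both lists' medians stayed above 0 under the scaling without the 10 most abundant genes, at 0.92 and 0.72 and at 1.13 and 1.02.

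The deep crypt secretory list was lower in 3 of 7 and higher in 0, through Mptx1, Reg4 and Spink4. The stem and transit list was lower in 2 of 5, through Slc12a2 and Sox9. Of 3 cycling genes, 0 passed. Of 4 membrane mucins, 1 was higher: Muc1, at 103 and 37.6 CPM against 14.6 and 11.8 CPM. Among cells of at least 5000 UMIs, or of at most 10% mitochondrial UMIs, 0 membrane mucins were higher.

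Of the defence and stress lists, epithelial defence had the most called genes. Over all genes 2.17% were higher and 2.09% lower. Epithelial defence was higher in 4 of 13 (Duox2, Saa1, Sprr2a3 and Tgm3) and lower in 1, Reg4. The lists share genes: Saa1, Sprr2a3, Tgm3 and Reg4 were also counted in lists above, so these counts are not separate results. Duox2, a hydrogen peroxide producing oxidase, stood at 80.4 and 27.2 CPM, against 7.10 and 7.17 CPM. It was the 1 higher gene of 10 sentinel and inflammasome genes. Among cells of at least 5000 UMIs, or of at most 10% mitochondrial UMIs, 0 genes of that list were higher. Interferon response genes were higher in 2 of 13, Irf7 and Oasl1. Immediate early and stress genes were higher in 2 of 25, Gadd45a and Gadd45b; Gadd45a, a growth arrest gene, stood at 420 and 363 CPM, against 138 and 133 CPM. Of 13 cell death genes, 0 passed.

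H2-Ab1, of MHC class II, was 1 of 2 measured in its list and stood at 121 and 94.7 CPM, against 15.3 and 18.9 CPM. The ion and water transport list had 3 higher (Atp12a, Clic5 and Trpm4) and 2 lower (Kcne3 and Slc12a2) of 18. Of 12 mitochondrially encoded genes 0 passed 2-fold, and all 12 lay above in both libraries, with medians of 0.69 and 0.49.

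**Figure D3:**
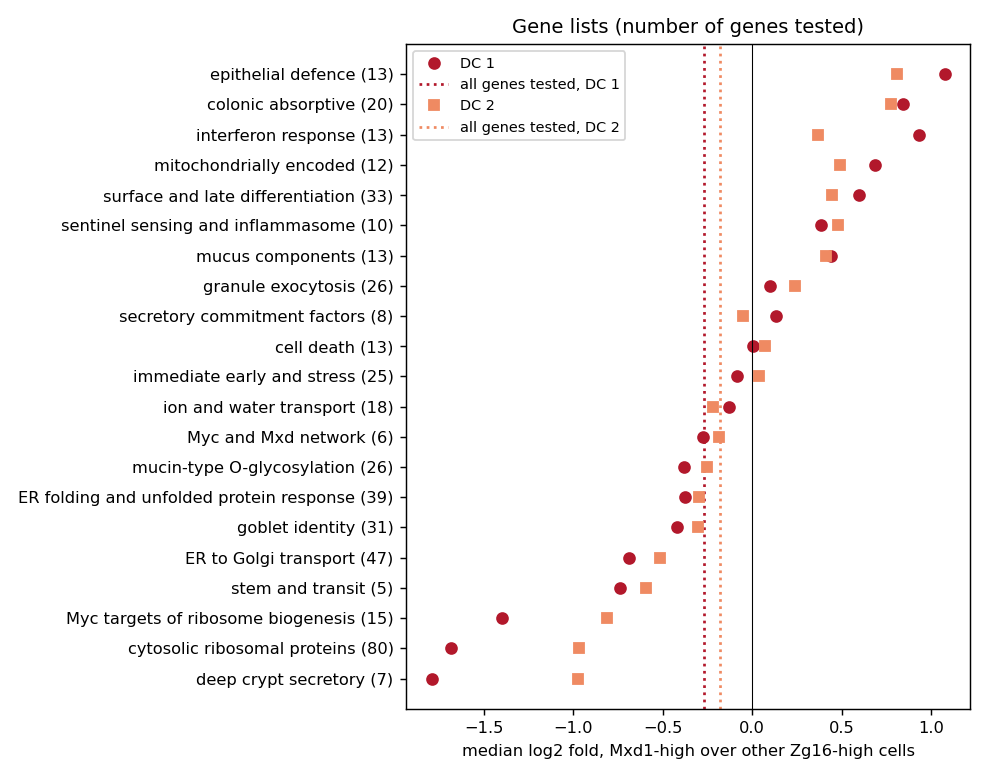
Median log2 fold of each gene list, Mxd1-high over other Zg16-high cells, for lists with at least 5 genes measured and with that number in brackets; circles are DC 1, squares DC 2, and dotted lines the median of all genes, −0.27 and −0.18. Ribosomal proteins and deep crypt genes lie lowest, near −1.7 and −1.8 in DC 1 and near −1 in DC 2, and of the lists shown epithelial defence lies highest, at 1.08 and 0.81. A gene can be in more than 1 list.

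Limits on depth narrowed the gap in depth between the sets without matching it. Among cells of at least 5000 UMIs, 35 and 62 of them Mxd1-high, Krt20 stood at 470 and 361 CPM, against 47.1 and 54.4 CPM in other Zg16-high cells. Saa1 stood at 3774 and 1263 CPM, against 131 and 142 CPM. Among cells with at most 10% mitochondrial UMIs, Krt20 stood at 535 and 359 CPM, against 50.6 and 56.0 CPM.

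Among cells under 5000 UMIs the sets lay closer in Krt20 and Clca1. Krt20 stood at 682 and 814 CPM in 73 and 52 Mxd1-high cells, against 408 and 275 CPM in 21 and 39 other Zg16-high cells. Clca1 stood at 28633 and 23896 CPM, against 24872 and 10127 CPM. Shallow Zg16-high cells whose Mxd1 missed the threshold thus also held much Krt20 and Clca1. At this depth, too, the rule asks for 2 Mxd1 UMIs. Other raised genes varied. Cyp2d12 lay close, at 450 and 245 CPM against 472 and 160 CPM. Sprr1a stayed apart, at 144 and 145 CPM against 12.8 and 38.4 CPM.

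Across all Zg16-high cells that met the absorptive condition, Krt20 was highest and Mptx1 lowest where Mxd1 was highest. Krt20 stood at 30.8 and 42.1 CPM where Mxd1 was 0, at 67.5 and 37.1 CPM above 0 to 1 per 10000, at 104 and 118 CPM above 1 to 3, at 484 and 352 CPM above 3 to 6, and at 625 and 674 CPM above 6. Mptx1 stood at 35437 and 23616 CPM at no Mxd1, at 24594 and 19757 CPM above 0 to 1, at 27274 and 16902 CPM above 1 to 3, at 12927 and 8030 CPM above 3 to 6, and at 3237 and 3000 CPM above 6. The lowest steps were not in order in both libraries. Mxd1, which sets the steps, also chose the members. The steps above 3 hold nearly all Mxd1-high cells, so they largely repeat the contrast above. A cell above 0 to 1 must hold at least 10000 UMIs, so step and depth are partly tied by counting. Median depth ran from 11605 and 9908 UMIs to 4137 and 4274 UMIs over the same steps, and its part was not tested.

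Just outside and inside the Mxd1 threshold, Krt20 stood at 257 and 298 CPM in the 5 and 26 members at 3 to under 4 per 10000 and at 143 and 161 CPM in the 12 and 39 cells at 2 to under 3. The 10 and 8 cells that the absorptive condition removed had the most Saa1, 17849 and 15223 CPM, and more Krt20 than the members, 1201 and 739 CPM. The 5 and 7 members with Zg16 at 200 to under 300 per 10000 had 179 and 35.1 CPM of Krt20, and 2 and 0 cells lay just below at 150 to under 200.

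**Figure D4:**
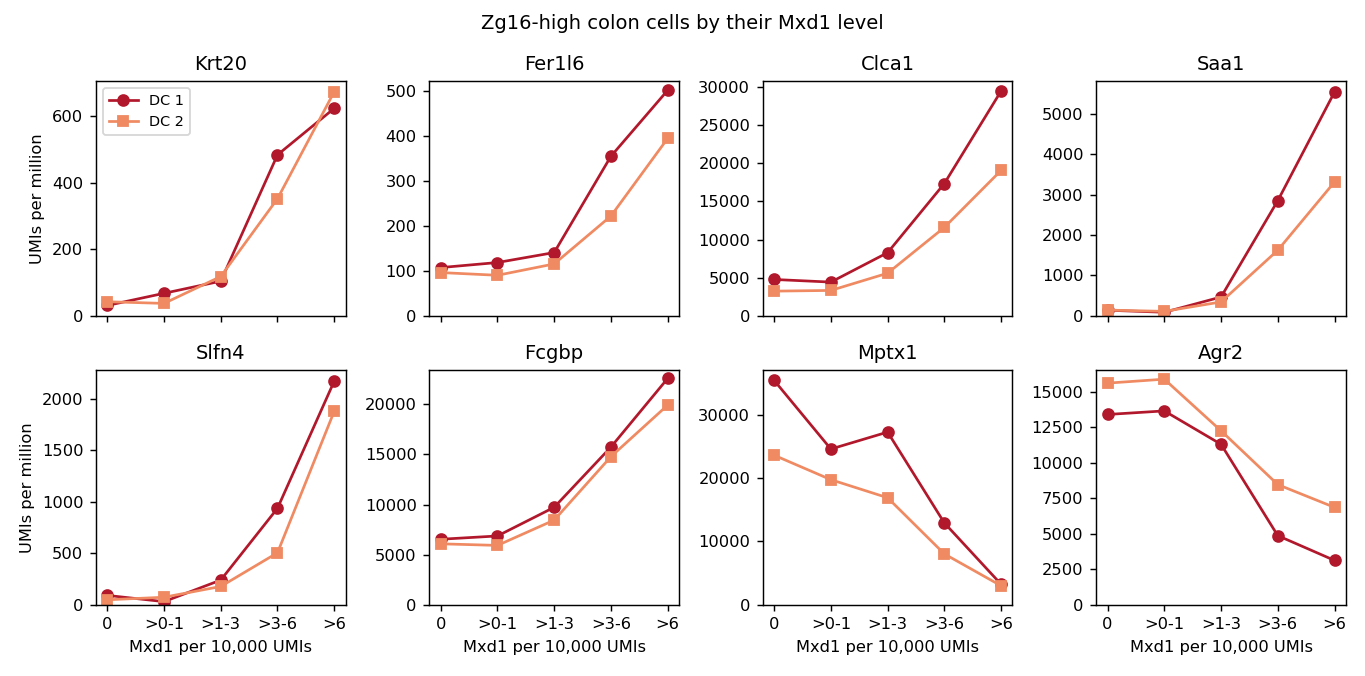
CPM of 8 genes in Zg16-high DC cells grouped by their Mxd1 level per 10000 UMIs, with 1 line per library; each point is the sum over 31 to 363 cells. Krt20, Fer1l6, Clca1, Saa1, Slfn4 and Fcgbp are highest above 6 per 10000, and Mptx1 and Agr2 are lowest there. Groups above 3 per 10000 hold nearly all Mxd1-high cells, which the same level chose.

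The same rule was applied to Si8 cells, since it does not name the tissue. Its absorptive condition acted in DC alone, where it removed 10 and 8 cells, against 0 and 0 in Si8. The rule took 370 of 1509 kept cells in Si8 1 (24.5%, 22.4 to 26.8) and 123 of 2237 in Si8 2 (5.50%, 4.59 to 6.53). The shares in DC were 5.81% and 2.32%, and that of DC 1 lay above that of Si8 2. With 2 against 2 libraries no threshold can be reached (two-sided exact permutation test, p = 0.667, smallest possible 0.333), so neither a difference nor a likeness can be called. DC Mxd1-high cells had medians of 4311 and 5592 UMIs, against 6623 and 15065 in Si8, and mitochondrial medians of 10.1% and 9.32%, against 1.44% and 2.03%. Tissue, depth and mitochondrial share cannot be told apart in full in what follows.

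With 1 UMI sum per library, edgeR's quasi-likelihood test found 1267 of 7020 genes to differ between DC and Si8 Mxd1-high cells at an adjusted p under 0.05 (18.0%), 642 higher in DC (9.15%) and 625 lower (8.90%). Scaling by library totals alone moved the median of all genes to 0.49 on the log2 scale and gave 1329 higher and 343 lower. DESeq2 called 868.

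The markers of these cells were partly shared. Krt20 stood at 575 and 478 CPM in DC, against 2090 and 1620 CPM in Si8, and fell by 2.28 ± 0.32 (SE) on the log2 scale (edgeR adjusted p = 5.77e-04). Clca1 stood at 25646 and 14503 CPM, against 16052 and 15247 CPM, a log2 difference of −0.09 ± 0.37 (edgeR adjusted p = 0.898). Fer1l6 stood at 451 and 289 CPM, against 351 and 266 CPM, a log2 difference of −0.20 ± 0.33 (edgeR adjusted p = 0.737). For Clca1 and Fer1l6 the sums of the tissues overlapped, and the fitted sign, after scaling by trimmed means, was opposite to that of the mean CPM. Under library totals alone it turned, to 0.37 for Clca1 and 0.27 for Fer1l6. These errors leave room for sizeable differences either way.

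Defence and mucus genes differed in both directions. Slfn4 rose in DC, at 1752 and 1023 CPM against 113 and 13.3 CPM in Si8 (log2 3.96 ± 0.73, edgeR adjusted p = 0.00335). Saa1 rose too, at 4703 and 2259 CPM against 932 and 216 CPM (log2 2.13 ± 0.60, edgeR adjusted p = 0.0295). Its call was lost without DC 1 (edgeR adjusted p = 0.0631), among cells of at least 5000 UMIs (edgeR adjusted p = 0.121), without the highest doublet scores (edgeR adjusted p = 0.057) and by DESeq2 (adjusted p = 0.23). Fcgbp fell, at 20456 and 16774 CPM in DC against 34708 and 28895 CPM in Si8 (log2 −1.24 ± 0.34, edgeR adjusted p = 0.0263), a call lost under library totals alone (edgeR adjusted p = 0.121), without DC 2 (edgeR adjusted p = 0.0715) and without Si8 1 (edgeR adjusted p = 0.093). Muc2 did not pass, at 16239 and 12898 CPM against 21368 and 19329 CPM (log2 −0.94 ± 0.33, edgeR adjusted p = 0.0722), though it did by DESeq2 (adjusted p = 0.0332) and among cells of at least 5000 UMIs (edgeR adjusted p = 0.0134).

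Several genes of regional identity and of colonic transport had 0 UMIs in the Si8 sums. Hoxb13, a homeobox gene of the hindgut, stood at 262 and 311 CPM in DC against 0 and 0 in Si8, at least 499-fold higher when 3 counts over the group are taken as the floor. On the same floor Atp12a was at least 1153-fold, Car2 450.4-fold, Car1 440.1-fold, Best2, a bicarbonate channel of goblet cells, 258-fold, and Tgm3 340.3-fold higher. Mptx1 stood at 6565 and 6129 CPM, against 3.05 and 7.46 CPM. The other genes of the 10 most raised were Ahnak2, 2310079G19Rik and Slpi, a protease inhibitor of mucosal secretions.

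At the other end, Reg3b, an antibacterial lectin of the small intestine, had 0 UMIs in both DC sums and 3365 and 4302 CPM in those of Si8, which makes it lower in DC by at least 1659-fold. Reg3g had 1 UMI over both DC sums against 31232 UMIs in Si8; it and Reg3b are close copies. Tm4sf5, Tm4sf4, Apoa1, Serpina1b, Defa20 and Gm15284 also had 0 UMIs in DC, and Lgals2 and Defa24 had 3 and 1. Defensin genes are near-identical copies, so single members are uncertain, and of the 9 Paneth genes tested 8 fell.

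By list, 21 of 32 interferon response genes fell and 0 rose in DC, beside 8.90% and 9.15% of all genes. Under library totals alone 16 still fell and 0 rose. Of 21 ion and water transport genes, 12 rose and 3 fell. Of 29 immediate early and stress genes, 13 rose and 1 fell, and of 13 mitochondrially encoded genes 12 rose. Of 48 ER to Golgi genes, 15 fell and 0 rose, but 5 fell under library totals alone. Of 80 ribosomal protein genes, 0 passed in either direction, with a median of 0.09 beside 0.01 for all genes. Of 15 mucus genes outside the rule, 4 rose and 6 fell, and of 34 goblet identity genes 5 rose and 12 fell, where library totals alone gave 9 and 7.

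The last comparison asked whether Mxd1-high cells differ from other Zg16-high cells by another amount in DC than in Si8. The edgeR interaction called 199 of 9952 genes (2.00%), 118 more positive in DC (1.19%) and 81 more negative (0.814%), and DESeq2 called 66. Of 80 ribosomal protein genes, 0 passed. Their share of UMIs was also low in Si8 Mxd1-high cells, at 3.72% and 5.16%, against 12.8% and 14.1% in other Zg16-high Si8 cells.

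Prdx6, a peroxiredoxin that reduces lipid peroxides (chromosome 1, 161240112 to 161251219, minus strand), went opposite ways. In DC it stood at 1271 and 838 CPM in Mxd1-high cells, against 290 and 323 CPM in other Zg16-high cells. In Si8 it stood at 19.5 and 36.2 CPM, against 85.8 and 103 CPM. The interaction was 3.42 ± 0.31 on the log2 scale (edgeR adjusted p = 1.56e-11), with each DC library on the opposite side of 0 to each Si8 library.

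H2-Ab1 stood at 121 and 94.7 CPM in DC Mxd1-high cells, against 15.3 and 18.9 CPM in other Zg16-high cells, while in Si8 it stood at 150 and 148 CPM, against 156 and 147 CPM. Its interaction was 2.48 ± 0.32 (edgeR adjusted p = 2.73e-07). Krt20 also had a larger contrast in DC, where it stood at 575 and 478 against 57.2 and 59.7 CPM, than in Si8, where it stood at 2090 and 1620 against 657 and 729 CPM (interaction 1.60 ± 0.29, edgeR adjusted p = 3.62e-04).

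Pmp22, a membrane protein, stood at 404 and 401 CPM in DC Mxd1-high cells, against 150 and 132 CPM, and at 246 and 124 CPM in Si8, against 4.59 and 7.28 CPM; the contrast was 3.49 log2 units smaller in DC (edgeR adjusted p = 5.80e-11). Anpep, a brush border aminopeptidase, stood at 0 and 1.30 CPM in DC Mxd1-high cells, against 11.7 and 6.56 CPM. In Si8 it stood at 68.3 and 79.4 CPM, against 11.8 and 19.5 CPM. Its level in DC Mxd1-high cells rests on few UMIs, so the size of its interaction is uncertain. Of 13 mitochondrially encoded genes, 10 had a more positive contrast in DC and 0 a more negative one. Mitochondrial genes took 10.1% and 9.11% of UMIs in DC Mxd1-high cells, against 6.30% and 6.21% in other Zg16-high cells, and 2.00% and 2.48% in Si8, against 3.23% and 3.57%.

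**Figure D5:**
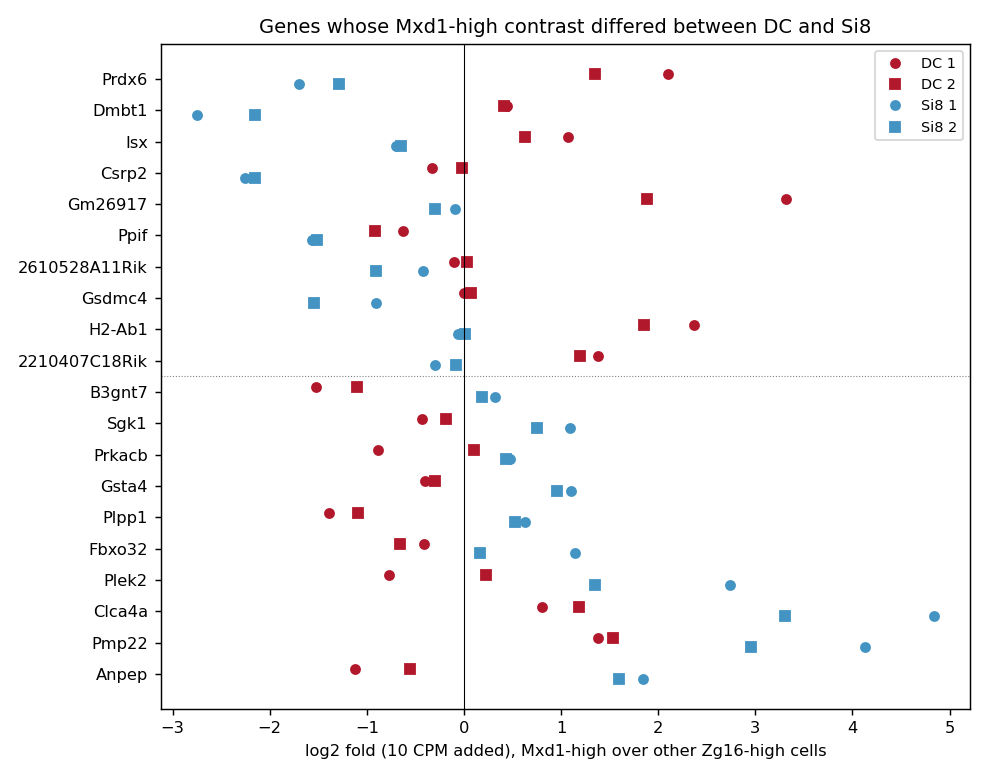
Log2 fold of Mxd1-high over other Zg16-high cells, with 10 CPM added, in DC 1 and DC 2 (red) and Si8 1 and Si8 2 (blue), for the 10 genes with the most positive and the 10 with the most negative interaction. For H2-Ab1 the DC values are 2.37 and 1.86 and the Si8 values −0.06 and 0.01.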

How the data were processed

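Droplet libraries were made with the single cell 3′ v2 kit, per the labels' protocols. The deposited values are counts, raw UMIs per gene and barcode, made by the authors with Cell Ranger 2.1.1 on mm10, per the submitters' processing notes, with no normalization. No source used here gives the annotation version, so coordinates come from GENCODE M21 (GRCm38), which held 28341 of 28694 gene identifiers.

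Members were found in Python 3.11.15, and UMIs were summed per library and cell set. Between DC sets no test was made. DC and Si8 sums, and the interaction with library as a block, were tested in R 4.3.3 with edgeR 4.0.16 (TMM, minimum count 10, quasi-likelihood, Benjamini-Hochberg over all genes tested), and DESeq2 1.42.0 was the alternative. The 5 genes of the rule were fitted but not counted in lists. Both steps were tested on simulated data. Of 10827 barcodes, Scrublet in scanpy 1.11.5 marked 22 (0.203%), too few to have worked, so doublets were kept and an alternative removed the 298 highest scores, which held 0 and 2 DC members.

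Named genes were the 5 markers, the 15 most raised and reduced per DC contrast of at least 50 CPM, the 10 per tissue test, and the called or most abundant members of 30 gene lists (714 genes). The values of 1 list gene are not reported here. The members and lists were chosen with earlier results of these data known. With 2 numbered replicates per tissue, deviations of same-numbered libraries correlated at 0.468 over 4358 genes, and no source says that the numbers pair them. Precision is limited by 571820 and 771211 UMIs in the DC Mxd1-high sums and 3277455 and 1877344 in the Si8 sums.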

Additional observations from a re-analysis of the deposited data

Results flagged for a closer look

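The contrast of Mxd1-high against other Zg16-high cells differed between DC and Si8 for 199 genes by the edgeR interaction test, and the 20 named here were the largest by the rule for named genes. Those with a more positive contrast in DC were Prdx6 (3.42 on the log2 scale), Dmbt1 (3.38), Isx (2.87), Csrp2 (2.84), Gm26917 (2.76), Ppif (2.66), 2610528A11Rik (2.65), Gsdmc4 (2.62), H2-Ab1 (2.48) and 2210407C18Rik (2.28). Dmbt1, a mucosal scavenger glycoprotein, stood at 78.7 and 113 CPM in DC Mxd1-high cells, against 55.4 and 82.1 CPM in other Zg16-high cells, and at 8.85 and 27.7 CPM in Si8, against 116 and 158 CPM. Ppif, cyclophilin D of the mitochondrial matrix, was lower in Mxd1-high cells of both tissues, by less in DC: 107 and 70.0 CPM against 170 and 141 CPM in DC, and 1.83 and 2.13 CPM against 24.9 and 24.6 CPM in Si8. Isx stood at 14.0 and 10.4 CPM in DC Mxd1-high cells, which rests on few UMIs.

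Those with a more negative contrast in DC were Anpep (−5.92), Pmp22 (−3.49), Clca4a (−3.47), Plek2 (−3.11), Fbxo32 (−3.0), Plpp1 (−2.74), Gsta4 (−2.24), Prkacb (−2.23), Sgk1 (−2.11) and B3gnt7 (−1.87). Clca4a was higher in Mxd1-high cells of both tissues. In DC it stood at 8.74 and 15.6 CPM against 0.71 and 1.22 CPM, which rests on few UMIs. In Si8 it stood at 330 and 101 CPM against 1.92 and 1.21 CPM. The level of Anpep in DC Mxd1-high cells also rests on few UMIs. B3gnt7, which extends mucin glycans, stood at 68.2 and 85.6 CPM in DC Mxd1-high cells, against 215 and 194 CPM, and at 63.2 and 37.3 CPM in Si8, against 48.8 and 31.7 CPM. Mitochondrial share and depth also differed between the tissues' Mxd1-high cells, and their part in these differences was not tested.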

How the results depend on the processing

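In the tissue test the uncalled difference of Clca1 turned to 0.05 with Mxd1 at least 5, 0.13 with Zg16 at least 400, 0.29 with thinned cells and 0.37 under library totals alone; that of Fer1l6 turned to 0.015 with Zg16 at least 400, 0.18 with thinned cells and 0.27 under library totals alone. With 1 library left out Clca1 ran from −0.67 to 0.30 and Fer1l6 from −0.66 to 0.13. Neither passed in any. Muc2 passed in 5 alternatives, and Saa1 and Fcgbp lost their calls in 4 and 3. No gene named with a call turned its direction; against other Zg16-high cells Spdef, Atoh1 and Myc, which had none, changed sign under at least 1 alternative. Against other Zg16-high cells, the 105 higher genes became 64 among cells of at least 5000 UMIs and 200 when scaled without the 10 most abundant genes. The 101 lower genes became 24 at no more than 10% mitochondrial UMIs, 358 with Mxd1 at least 5 per 10000, 183 with Zg16 at least 400, 25 among cells of at least 5000 UMIs, 52 with members chosen on separate UMIs, 217 with 1 CPM added, 252 with each cell counted the same and 24 without the 10 most abundant genes. With members chosen on separate UMIs, 85 of the 105 and 29 of the 101 were called again. Against all other kept cells, the 207 higher genes became 462 without the 10 most abundant genes. The 632 lower genes became 964 with Mxd1 at least 5, 291 against cells of the members' depth, 965 with 1 CPM added, 420 at 50 CPM and 324 without the 10 most abundant genes.

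With 1 DC library left out, the counts ran from 116 to 251 higher and 130 to 717 lower against other Zg16-high cells, and from 240.0 to 395 higher and 753 to 1418 lower against all other kept cells; the larger count was each time without DC 2, where DC 1 alone sets the call. The tissue test gave 409 of 2360 genes with cells thinned to 2000 UMIs and 911 to 1171 with 1 library left out. The interaction gave 38 of 6275 when thinned, 66 by DESeq2 and 100 to 280.0 with 1 library left out (100 without DC 1, 114 without DC 2, 104 without Si8 1 and 280.0 without Si8 2); a lone library is assumed to vary like the others.

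With the replicate number as a block, the tissue test called 2302 genes and the interaction 611. The numbers are shared by only 2 pairs, and the correlation of the same-numbered contrasts was 0.395, a hint from the data and not from the design.

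The share of Mxd1-high cells was 3.26% in DC 1 and 1.41% in DC 2 at no more than 10% mitochondrial UMIs, 4.52% and 1.18% with Mxd1 at least 5, and 2.03% and 1.31% among cells of at least 5000 UMIs. That depth limit, the scaling without mitochondrial genes and the matching on mitochondrial share were chosen after seeing the data. Of the values of named genes under all alternatives, 1035 of the contrast with other Zg16-high cells kept their size and 196 moved, 444 and 123 did so against all other cells, 464 of the tissue test kept their side of the threshold, 7 lost a call, 5 gained one and 10 turned, and of the interaction 348 kept it and 30 lost it.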

Other observations

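Some transcripts outside the gene lists were also abundant in Mxd1-high cells. Malat1, a nuclear non-coding RNA, took 5.05% of UMIs in DC 1 and 2.56% in DC 2, against 1.60% and 1.26% in other Zg16-high cells. Its level moved with depth. Among cells under 5000 UMIs it stood at 64814 and 52440 CPM, against 55676 and 29740 CPM in other Zg16-high cells. Among cells of at least 5000 UMIs it stood at 36365 and 16161 CPM, against 14848 and 12199 CPM. Gm26917, another non-coding RNA, stood at 1103 and 480 CPM, against 102 and 122 CPM, while in Si8 it stood at 65.0 and 60.7 CPM, against 69.8 and 76.9 CPM. Sct, the hormone secretin, was the 1 enteroendocrine gene measured and stood at 33.2 and 33.7 CPM in DC Mxd1-high cells, against 10.7 and 10.53 CPM in other Zg16-high cells. Of the Paneth list 1 gene was measured in DC and 0 passed, and no tuft, immune or stromal gene reached 20 CPM.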
